A study of Mus musculus with 4 samples.

Results

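The 35 interferon-stimulated genes described here were taken by symbol from the 39179 genes measured in epididymal white adipose tissue, the fat pad beside the epididymis of male mice. Each of the 35 symbols had 1 row, and all 35 passed the filter of a mean normalized read count of 10 or more. Polyadenylated RNA was sequenced in 2 KO libraries, labelled R4 and R6 (genotype given as Nck2 mutant, Nck2-/- in the design), and in 2 WT libraries, labelled R1 and R3 (Nck2+/+). All 4 came from a mixed genetic background, and age, the altered part of the gene and the number of mice behind each library are not given in the sources used here. Because nothing says that the libraries of a group came from separate mice, the p-values measure only the spread between these samples. The libraries held between 31831904 and 37980391 reads assigned to genes.

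Interferons are secreted signals of infection and immune activation. Type I interferons act through receptors and JAK kinases, and a complex that holds STAT2 and IRF9 then binds the interferon-stimulated response element. Interferon gamma acts through the gamma-activated site, with IRF1 as an early target that drives further genes, among them the guanylate-binding proteins and the immunoproteasome. In adipose tissue such genes are expressed by adipocytes, stromal cells and resident immune cells.

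Several features of the libraries bear on all values below. Nck2 was at 1076 and 947 normalized counts in KO R4 and R6, against 1279 and 1667 in WT R1 and R3 (log2 fold change -0.53, SE 0.16, limma adjusted p = 0.0509). This gene passed as lower with DESeq2 and with a pseudocount of 5, but not with the other settings tried. Epididymis and male tract genes were at low levels in the KO libraries, where the 20 listed genes summed to 122.7 and 109.4 normalized counts, against 378672 and 350844 in WT. Most of each sum was Crisp1, at 107.8 and 93.7 in KO R4 and R6 and at 343811 and 334537 in WT R1 and R3. Some other male tract genes differed between R1 and R3, in either direction, as with Svs2 (12085 and 63.3) and Spag11b (6.1 and 44.7). Smooth muscle genes summed to 26110 and 31206 in KO and to 445286 and 584613 in WT, and mature adipocyte genes to 1711535 and 1957089 in KO and to 735521 and 485460 in WT. Macrophage markers summed to 108256 and 101377 in KO R4 and R6, against 52423 and 50605 in WT R1 and R3. The part of these differences in tissue content in the results below was not tested, and in bulk tissue fewer cells of a type and less RNA per cell cannot be told apart.

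Promoter windows running from 250 bases before to 50 bases after the transcription start (RefSeq, GRCm38.p6) were found for 27 of the 35 genes. The core of the interferon-stimulated response element, 2 runs of GAAA with any 2 bases between them on either strand (below, the paired GAAA motif), occurred in 14 of the 27 windows (51.9%), against 3.49% of 27025 mouse promoters. The gamma-activated site TTCNNNGAA, which reads the same on both strands, occurred in 8 of the 27 (29.6%), against 8.47% of all promoters. Both motifs occurred in 3 windows and neither in 8. Windows are shown for genes that differ in their motifs and in their levels in KO: Irf1, Irf8, Gbp3 and Gbp7, which rose, Isg15 and Ifit3, which did not pass, and Isg20, which fell. Capitals mark the motif matches, and each stretch reads 5′ to 3′ on the strand of the gene, upstream of its start and of its annotated exons.
Irf1: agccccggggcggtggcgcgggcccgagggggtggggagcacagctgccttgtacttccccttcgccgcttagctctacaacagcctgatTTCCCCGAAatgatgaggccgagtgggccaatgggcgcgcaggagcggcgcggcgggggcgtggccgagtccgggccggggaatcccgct
Irf8: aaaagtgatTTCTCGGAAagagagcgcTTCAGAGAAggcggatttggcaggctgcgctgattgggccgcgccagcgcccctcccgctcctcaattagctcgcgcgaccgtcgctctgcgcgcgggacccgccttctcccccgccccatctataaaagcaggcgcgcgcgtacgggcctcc
Gbp3: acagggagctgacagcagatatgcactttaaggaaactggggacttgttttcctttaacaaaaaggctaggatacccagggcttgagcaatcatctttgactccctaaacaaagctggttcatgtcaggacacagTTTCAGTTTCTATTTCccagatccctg
Gbp7: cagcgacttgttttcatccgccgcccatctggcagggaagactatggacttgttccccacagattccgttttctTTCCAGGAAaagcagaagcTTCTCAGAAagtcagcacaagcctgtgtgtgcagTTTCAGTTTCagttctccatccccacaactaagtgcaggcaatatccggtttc
Isg15: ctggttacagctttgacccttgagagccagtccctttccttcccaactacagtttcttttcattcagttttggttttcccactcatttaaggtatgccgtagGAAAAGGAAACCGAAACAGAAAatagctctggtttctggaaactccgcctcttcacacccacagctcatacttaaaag
Ifit3: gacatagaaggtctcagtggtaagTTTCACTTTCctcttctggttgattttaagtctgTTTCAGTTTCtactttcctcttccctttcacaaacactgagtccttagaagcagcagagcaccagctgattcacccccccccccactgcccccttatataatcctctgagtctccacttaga
Isg20: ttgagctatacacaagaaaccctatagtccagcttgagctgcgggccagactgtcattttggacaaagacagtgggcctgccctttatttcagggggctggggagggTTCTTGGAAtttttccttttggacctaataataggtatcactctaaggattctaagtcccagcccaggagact
The stretches lie on the plus strand at chr11:53769834-53770013 (Irf1), chr8:120736178-120736357 (Irf8), chr3:142559864-142560025 (Gbp3) and chr3:142530156-142530335 (Gbp7). Isg15 is on the minus strand at chr4:156200819-156200998, and the other two are on the plus strand at chr19:34583349-34583528 (Ifit3) and chr7:78913244-78913423 (Isg20). Irf1 and Isg20 held only the gamma-activated site letters, Irf8 held that motif at 171 and 153 bases upstream, and Isg15 held 3 overlapping copies of the paired GAAA motif starting 78, 72 and 66 bases upstream. Ifit3 held 2 copies of it, at 156 and 122 bases upstream, Gbp3 held 2 overlapping copies, and Gbp7 held 1 copy with 2 gamma-activated site matches. A match describes these letters only and is not evidence of binding.

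The comparison asks how expression in this tissue differs when Nck2 is mutant. Among the 35 genes, 11 rose in KO, 2 fell and 22 did not pass (limma, Benjamini-Hochberg adjusted p under 0.05 over 16710 genes). The genes that rose were all 3 immunoproteasome subunits, all 3 guanylate-binding proteins, Irf1, Irf8, Ifi27l2a, Ddx58 and Ifih1, and those that fell were Isg20 and Irf9. Of the 11 genes of the IFIT, OAS and ISG15 families, 0 passed in limma, 0 had an unadjusted p under 0.05, and edgeR and DESeq2 called none of them. The share that rose was 31.4%, against 22.4% of all genes tested, and the share that fell was 5.71%, against 24.4%. The median log2 fold change (KO minus WT, each on a scale of log2 of the normalized count plus 1) was 0.29, against -0.01 over all genes tested.

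**Figure D1:**
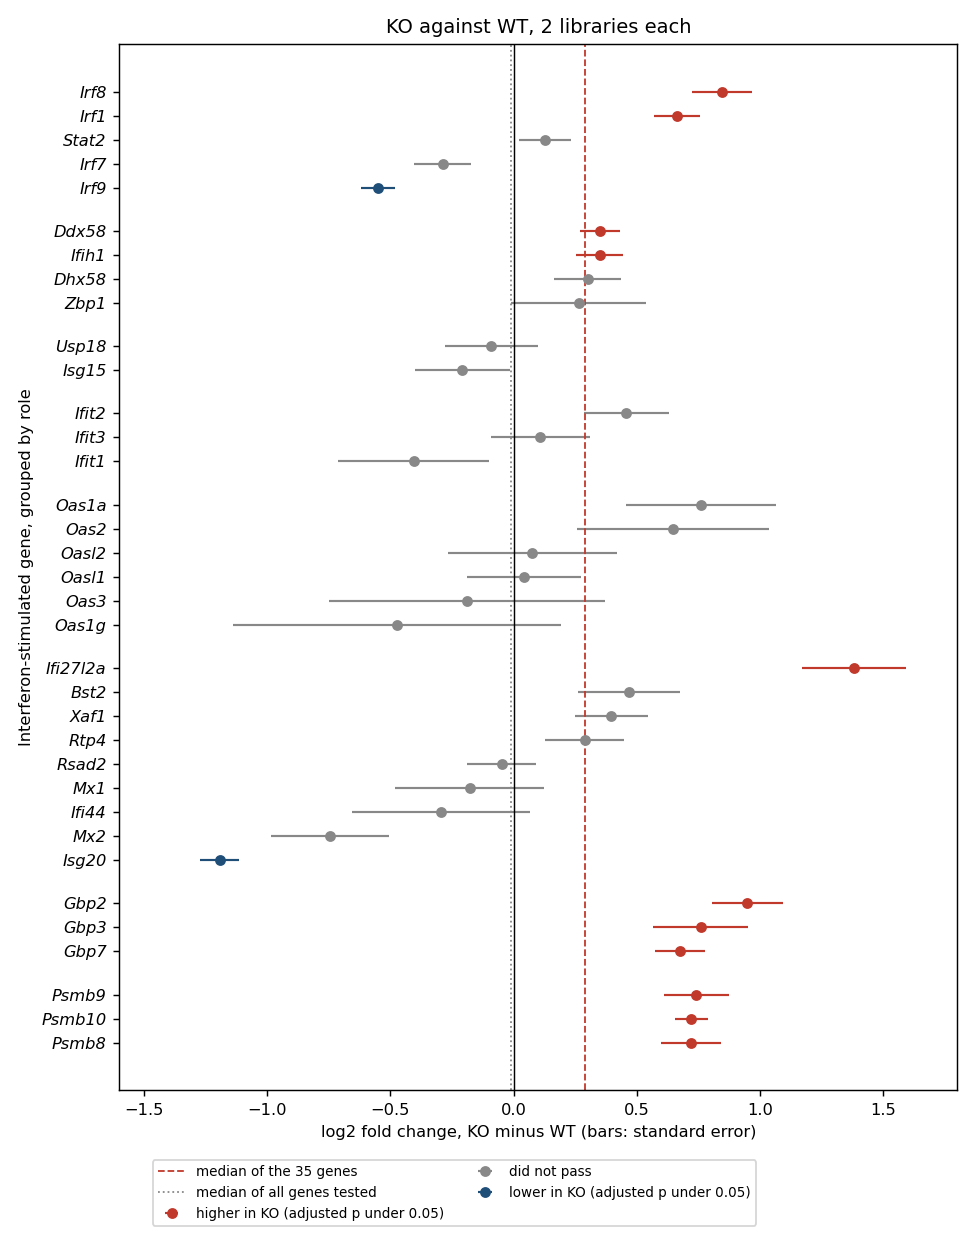
Log2 fold change of each interferon-stimulated gene, KO minus WT, on the horizontal axis with bars for the standard error (2 libraries per group), and genes grouped by role down the page. Red points passed as higher in KO (11 genes), blue points as lower (2 genes), and grey points did not pass (22 genes). The dashed line marks the median of the 35 genes (0.29) and the dotted line that of all genes tested (-0.01).

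Both KO libraries lay above both WT libraries for 17 of the 35 genes (48.6%, against 38.9% of all genes tested) and below both for 4 (11.4%, against 40.6%). The groups overlapped for the other 14. In the authors' deposited table, 10 of the 35 genes were higher and 2 lower at an adjusted p under 0.05 (18.8% and 21.7% of the 19091 genes with an adjusted p there). Those 12 were all among the 13 called here, and the 1 left out was Ifih1. edgeR and DESeq2 on the recovered reads each called the same 12.

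The immunoproteasome subunits replace the constitutive catalytic subunits of the proteasome and shape the peptides presented on MHC class I. Psmb10 was at 1216 and 1196 normalized counts in KO R4 and R6, against 737 and 728 in WT R1 and R3 (log2 fold change 0.72, SE 0.067, limma adjusted p = 0.0028). Psmb8 was at 1887 and 1520 in KO and at 1026 and 1033 in WT (0.72, SE 0.12, adjusted p = 0.012). Psmb9 was at 936 and 769 in KO and at 482 and 534 in WT (0.74, SE 0.13, adjusted p = 0.0135). The 3 subunits thus rose by nearly the same amount, with no overlap between groups. Exons of Psmb9 overlap those of the antigen peptide transporter gene Tap1 on the opposite strand over 212 bases, and without strand in the counting their reads cannot be told apart there. Tap1 was at 1326 and 1052 in KO and at 890.5 and 982 in WT.

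The guanylate-binding proteins are large GTPases that attack the membranes of intracellular pathogens. Gbp2 was at 3699 and 2816 in KO R4 and R6, against 1665 and 1680 in WT R1 and R3 (log2 fold change 0.95, SE 0.14, limma adjusted p = 0.0091). Gbp7 was at 2332 and 2033 in KO and at 1434 and 1298 in WT (0.67, SE 0.10, adjusted p = 0.0087). Gbp3 was at 1303 and 942 in KO and at 716 and 598 in WT (0.76, SE 0.19, adjusted p = 0.0354). All 3 had both KO libraries above both WT libraries, with R4 the higher of the KO libraries. The 3 genes are neighbours on chromosome 3 and close paralogs, so reads may be shared among them and their changes may not be separate. The paired GAAA motif was found in all 3 promoter windows, and in 0 of the 3 immunoproteasome windows.

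Among the transcription factors, 2 rose, 1 fell and 2 did not pass. Irf1 was at 2820 and 2430 in KO R4 and R6, against 1667 and 1638 in WT R1 and R3 (log2 fold change 0.66, SE 0.093, limma adjusted p = 0.0072). Irf8, which directs the development of monocytes and dendritic cells, was at 740 and 863 in KO and at 471 and 419 in WT (0.85, SE 0.12, adjusted p = 0.0078). Irf8 was higher in R6 than in R4, unlike most of the 35. Irf9 was at 1217 and 1133 in KO and at 1713 and 1730 in WT (-0.55, SE 0.07, adjusted p = 0.0056). Irf9 shares 123 exon bases with its neighbour Rnf31, which was at 1030 and 911 in KO and at 1089 and 1286 in WT. Stat2, the partner of Irf9, was at 1782 and 1538 in KO and at 1595 and 1438 in WT, with R6 inside the WT range (adjusted p = 0.367). Irf7, which amplifies type I interferon production, was at 855 and 705 in KO and at 940 and 957 in WT (-0.29, SE 0.12, adjusted p = 0.109).

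The cytoplasmic RNA sensors showed small differences. Ddx58, which encodes RIG-I, was at 1836 and 1659 in KO R4 and R6, against 1331 and 1410 in WT R1 and R3 (log2 fold change 0.35, SE 0.082, limma adjusted p = 0.0284). Ifih1, which encodes the sensor of long double-stranded RNA MDA5, was at 1506 and 1347 in KO and at 1065 and 1174 in WT (0.35, SE 0.095, adjusted p = 0.0419). The call on Ifih1 was lost with edgeR, with DESeq2, with TMM scaling and with no filter on low values. Dhx58, which modulates both sensors, was at 295 and 264 in KO and at 214 and 240 in WT, and Zbp1, a sensor of left-handed nucleic acid helices, at 190 and 148 in KO and at 172 and 114 in WT. Neither passed (adjusted p = 0.14 and 0.468). Exons of Dhx58 overlap an antisense gene, Dhx58os, over 141 bases.

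The antiviral effectors held both the greatest rise and the greatest fall of the 35 genes. Ifi27l2a, a small hydrophobic protein of the ISG12 family, was at 31895 and 26030 in KO R4 and R6, against 13153 and 9310 in WT R1 and R3 (log2 fold change 1.38, SE 0.21, limma adjusted p = 0.0092). Isg20, an RNA exonuclease, was at 575 and 588 in KO and at 1383 and 1282 in WT (-1.19, SE 0.078, adjusted p = 0.0014), and neither gene's groups overlapped. Ifi27l2a has close paralogs with which reads may be shared. Mx2, a dynamin-like GTPase, was at 61.8 and 48.0 in KO and at 99.8 and 84.7 in WT (-0.74, SE 0.24, adjusted p = 0.0634), with no overlap but a call that missed the threshold. Its paralog Mx1, which many inbred strains carry in a defective form, overlapped between groups, at 122 and 79.2 in KO and at 129 and 95.8 in WT. The part of tissue content in the fall of Isg20 and Irf9, as in the rises, was not tested.

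Bst2 (tetherin), Rtp4 and Xaf1 had both KO libraries above both WT libraries without passing, with log2 fold changes of 0.47, 0.29 and 0.40. Bst2 was at 1442 and 1046 in KO R4 and R6, against 785 and 1005 in WT R1 and R3. Rtp4 was at 411 and 324 in KO and at 285 and 313 in WT, and for both genes R6 lay close to R3. Xaf1 was at 698 and 540 in KO and at 466 and 467 in WT, with R6 clear of both WT libraries. Rsad2 (viperin), an enzyme that makes a chain-terminating nucleotide, was at 659 and 704 in KO and at 792 and 626 in WT, with both KO libraries inside the WT range. Ifi44 was at 231 and 124 in KO R4 and R6, against 178 and 243 in WT R1 and R3, with R6 below both WT libraries and R4 between them (adjusted p = 0.536).

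The OAS, IFIT and ISG15 genes, which are the classical targets of type I interferon, had a median log2 fold change of 0.04 between KO and WT and a median difference of 0.71 between KO R4 and KO R6, with R4 the higher in all 11. OAS enzymes sense double-stranded RNA and make oligoadenylates. Oas1a was at 185 and 113 in KO R4 and R6, against 76.4 and 94.0 in WT R1 and R3 (log2 fold change 0.76, SE 0.30, limma adjusted p = 0.107). Oas2 was at 952 and 463 in KO and at 365 and 492 in WT (0.65, SE 0.39, adjusted p = 0.235), so that R4 stood alone while R6 lay inside the WT range. Oasl2 was at 1108 and 576 in KO and at 687 and 836 in WT (0.08, SE 0.34, adjusted p = 0.869), with R4 above and R6 below both WT libraries. Oas3 was at 74.0 and 31.2 in KO and at 39.7 and 76.3 in WT, with R6 below both WT libraries and R4 between them. Oas1g was at 48.7 and 13.4 in KO and at 32.6 and 40.0 in WT, and Oasl1, which in mouse limits translation of Irf7, at 127 and 103 in KO and at 127 and 96.8 in WT. Oas1a and Oas1g are near-identical neighbours on chromosome 5, and reads could be split between them.

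IFIT proteins bind viral RNA that lacks the host cap methylation. Ifit1 was at 323 and 180 in KO R4 and R6, against 321 and 318 in WT R1 and R3 (log2 fold change -0.41, SE 0.31, limma adjusted p = 0.327). R4 lay about 2 normalized counts above the WT libraries and R6 far below them. Ifit3 was at 437 and 305 in KO and at 341 and 336 in WT, and Ifit2 at 734 and 563 in KO and at 509 and 431 in WT. Isg15, a ubiquitin-like modifier, was at 217 and 162 in KO and at 208 and 226 in WT, and Usp18, the protease that removes it, at 177 and 145 in KO and at 156 and 187 in WT. For both, R4 lay inside the WT range and R6 below it. The paired GAAA motif was found in 5 of the 10 promoter windows of genes that rose, in 9 of the 15 that did not pass and in 0 of the 2 that fell. The gamma-activated site was found in 4, 3 and 1 of them.

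**Figure D2:**
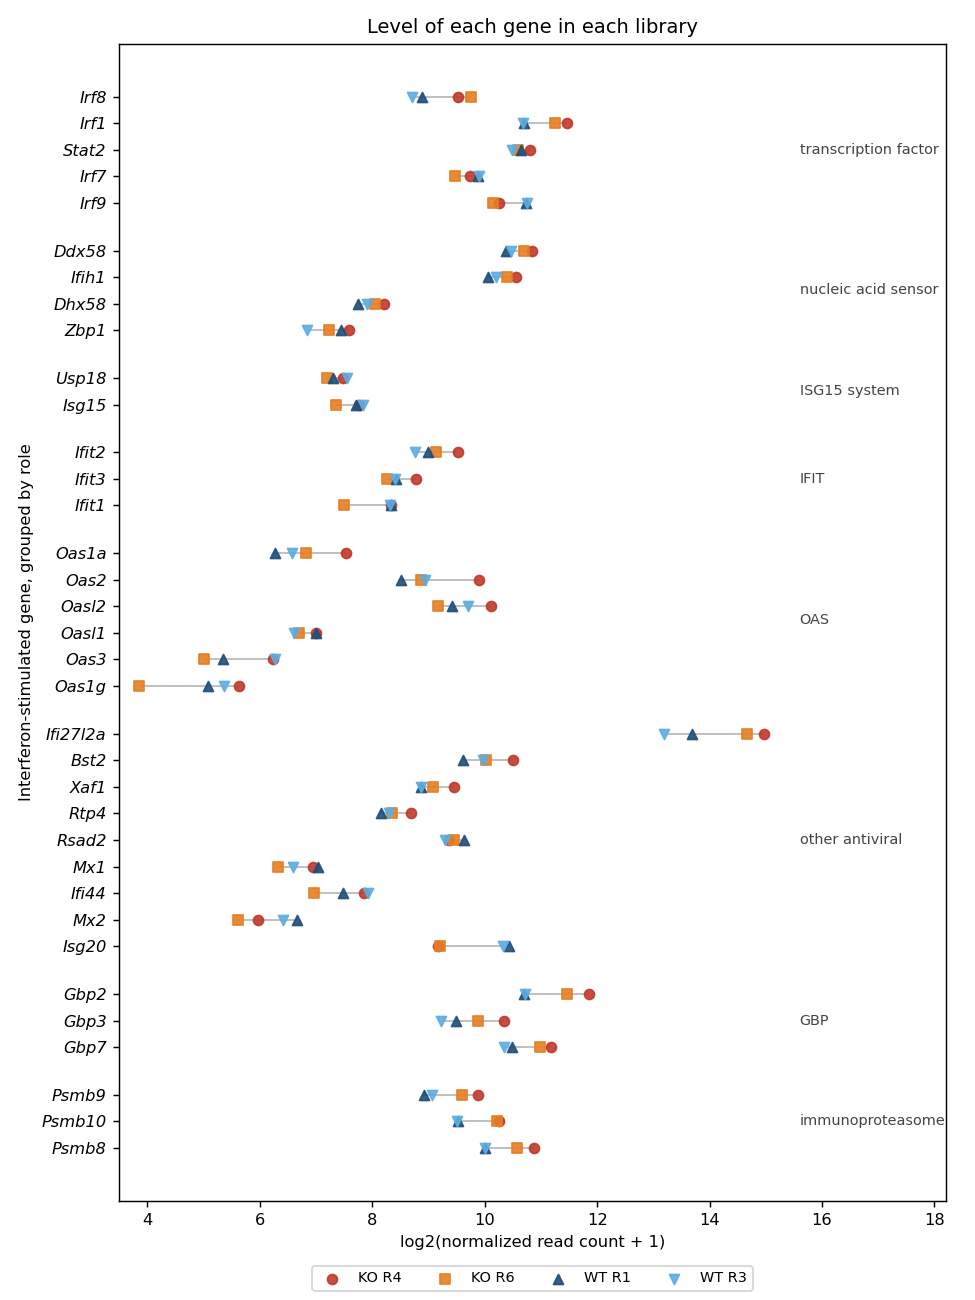
Level of each gene in each of the 4 libraries, as log2(normalized read count + 1), with KO R4 and R6 in red and orange, WT R1 and R3 in dark and light blue, and a grey line spanning the 4 values. KO and WT points are apart in the guanylate-binding and immunoproteasome rows, while in the OAS rows KO R4 and R6 lie up to 1.79 apart.

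Taken separately, KO R4 lay above both WT libraries for 25 of the 35 genes (71.4%, against 44.5% of all genes tested) and below both for 4 (against 45.8%). KO R6 lay above both for 17 (48.6%, against 44.7%) and below both for 13 (37.1%, against 46.3%). The median difference from the WT mean was 0.43 for R4 and 0.12 for R6, against -0.01 for each over all genes tested. With R6 left out, 13 genes were higher and 2 lower in R4 (limma adjusted p under 0.05, as were 14.3% and 19.1% of all genes), and the 3 gained were Oas1a, Oas2 and Xaf1 (adjusted p = 0.0453, 0.035 and 0.0321), while Ifih1 was lost. With R4 left out, 8 were higher and 4 lower in R6 (17.0% and 20.6% of all genes). The 3 lost were Gbp3, Ddx58 and Ifih1, and the 2 gained were falls of Ifit1 and Irf7 (adjusted p = 0.025 and 0.0408). These fits have 1 KO library, which is assumed to vary like the WT libraries.

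**Figure D3:**
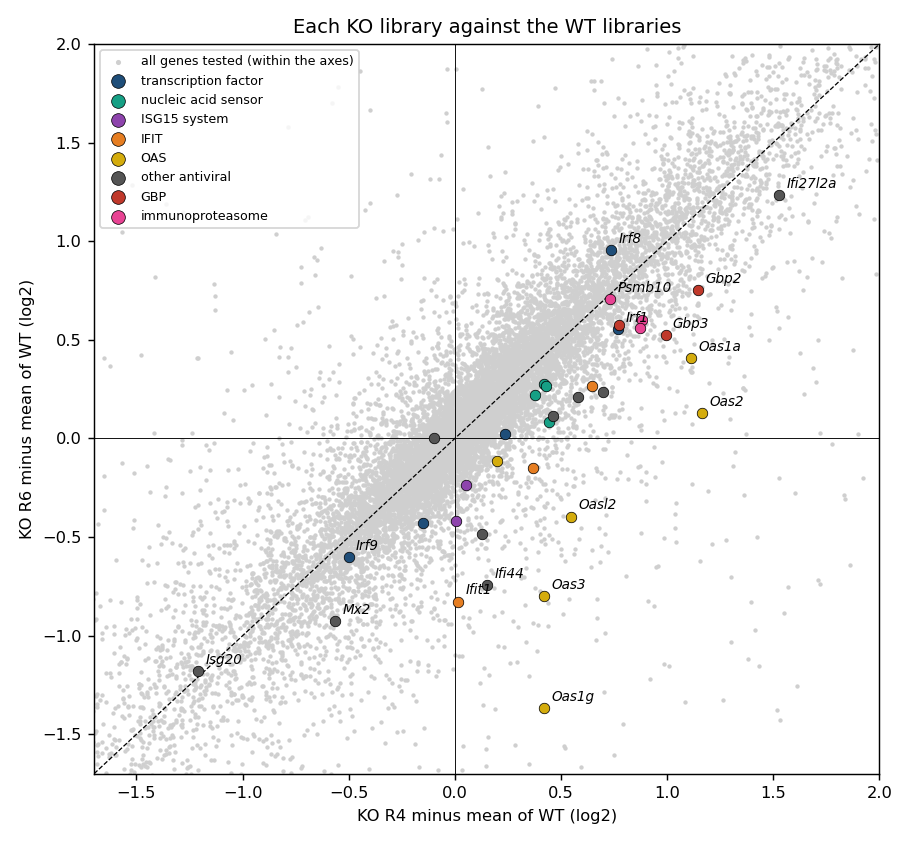
Log2 difference of KO R4 (horizontal axis) and of KO R6 (vertical axis) from the mean of the WT libraries for the 35 genes, coloured by role, with all genes tested in grey and the line of equal values dashed. Of the 35 points, 32 lie below the dashed line, and the OAS points reach from 1.17 on the R4 axis to -1.37 on the R6 axis.

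R4 exceeded R6 in 32 of the 35 genes (91.4%, against 45.5% of all genes tested), with a median log2 difference of 0.35, against -0.02 over all genes. The exceptions were Irf8, Rsad2 and Isg20. The median difference was 0.99 over the 6 OAS genes, 0.52 over the 3 IFIT genes, 0.39 over the 3 guanylate-binding genes and 0.28 over the 3 immunoproteasome subunits. R4 lay above and R6 below both WT libraries for 4 genes, Ifit1, Ifit3, Oasl2 and Oas1g, against 2.79% of all genes, and the opposite occurred for 0. With 1 library on each side, the difference between R4 and R6 has no test. The excess of R4 was not limited to the 35 genes. It was seen in 16 of 19 nucleic acid sensors and adaptors, 17 of 24 macrophage markers and 6 of 6 B cell markers. In 7 of 18 T and NK cell markers, 2 of 12 endothelial markers and 3 of 16 mature adipocyte genes R4 exceeded R6.

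Between the WT libraries, the median log2 difference (R1 minus R3) was -0.01. It reached -0.92 for Oas3, -0.44 for Ifi44 and -0.43 for Oas2, where R3 was the higher, and 0.60 for Zbp1. Across the 35 genes, the difference between the KO libraries and that between the WT libraries had a Pearson r of -0.53 and a Spearman rho of -0.375, against an r of -0.009 over all genes. This is across genes of the same 4 libraries and is given as a description.

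Levels per kilobase of exon (GENCODE M21) spanned a wide range. Ifi27l2a had 68888 and 56220 normalized counts per kilobase in KO R4 and R6, against 28407 and 20109 in WT R1 and R3. Bst2 followed, at 1597 and 1158 in KO and at 869 and 1113 in WT. Oas3 was the lowest, at 10.5 and 4.42 per kilobase in KO and at 5.62 and 10.8 in WT. By mean level per kilobase, Isg20 ranked 9 in KO and 3 in WT, and Irf9 ranked 14 in KO and 7 in WT.

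Upstream of these genes, interferon transcripts were at the edge of detection. Of 18 ligand genes, 14 had 0 reads in all 4 libraries, which allows up to 3 reads in each, and none passed the filter on low values. Ifng, the gamma interferon of T and NK cells, was at 9.4 and 5.6 in KO R4 and R6, against 2.0 and 3.7 in WT R1 and R3, and was not tested. Over all genes tested, 22.4% rose and 24.4% fell. Receptor and JAK-STAT genes rose in 7 of 11 and fell in 2, with a median log2 fold change of 0.46. Among them Ifnar2, a type I receptor chain, was at 2698 and 2868 in KO and at 1764 and 1649 in WT (0.71, SE 0.072, limma adjusted p = 0.0034). Ifngr1 and Ifngr2, the gamma receptor chains, rose by 0.56 and 0.77 (adjusted p = 0.0108 and 0.0047), and Il10rb, shared with the interleukin-10 receptor, by 0.82 (adjusted p = 0.0033). Ifnlr1, the interferon lambda receptor of epithelia, was at 21.6 and 13.4 in KO and at 176 and 196 in WT (-3.38, SE 0.31, adjusted p = 0.0026). The part of tissue content in this fall, as in the rises, was not tested. Jak2 fell by 0.71 on the log2 scale (adjusted p = 0.0122), a call lost without KO R6. Without KO R4, 4 receptor and JAK-STAT genes rose.

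Nucleic acid sensors and adaptors rose in 11 of 19 and fell in 1, against 22.4% and 24.4% of all genes tested. Their median was 0.33. Unc93b1, which carries endosomal Toll-like receptors, was at 4123 and 3969 in KO R4 and R6, against 2027 and 2103 in WT R1 and R3 (log2 fold change 0.97, SE 0.062, limma adjusted p = 0.0013). The RNA-sensing receptors Tlr8, Tlr7 and Tlr3 rose by 1.37, 0.83 and 0.55, and Irf5, a myeloid regulator of cytokines, by 0.90 (adjusted p = 0.00265, 0.0123, 0.00858 and 0.00545). Of 10 negative regulators, Sirpa, an inhibitory receptor of myeloid cells, rose by 1.22 and Socs3, a feedback inhibitor of JAK signalling, by 0.50 (adjusted p = 0.0024 and 0.0177). Cish, another such inhibitor, was at 242 and 385 in KO and at 1817 and 3215 in WT (-2.98, SE 0.37, adjusted p = 0.0052), and Pias1 fell by 0.31 on the log2 scale (adjusted p = 0.0291). The calls on Socs3 and Pias1 were lost without KO R6. Of the sensors and adaptors, 7 rose with DESeq2, and 6 rose without KO R4 and without KO R6.

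A further 44 tested interferon-stimulated genes held 19 that rose, 2 that fell and 23 that did not pass, with a median of 0.39. Over all genes tested, 22.4% rose and 24.4% fell. Cxcl9, a chemokine typical of interferon gamma, was at 1155 and 1323 in KO R4 and R6, against 403 and 310 in WT R1 and R3 (log2 fold change 1.8, SE 0.16, limma adjusted p = 0.0026). The chemokines Cxcl10 and Ccl5 of the same list did not pass (limma adjusted p = 0.369 and 0.983). Cxcl10 was at 73.1 and 41.3 in KO and at 102 and 60.5 in WT (-0.51, SE 0.42). Lgals3bp rose by 1.32 (adjusted p = 0.0012), Parp9, which works with interferon signalling, by 0.94 (0.0028), Sp100, a nuclear body protein, by 0.95 (0.0031) and Ifitm2, a block to virus entry, by 0.68 (0.0025). Ifitm1 was at 68.4 and 78.1 in KO and at 240 and 279 in WT (-1.81, SE 0.17, adjusted p = 0.0029). Without KO R4, 12 of the 44 rose, and without KO R6, 24 rose. R4 exceeded R6 in 40 of these 44 genes, which share the R4 and R6 libraries with the 35.

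**Figure D4:**
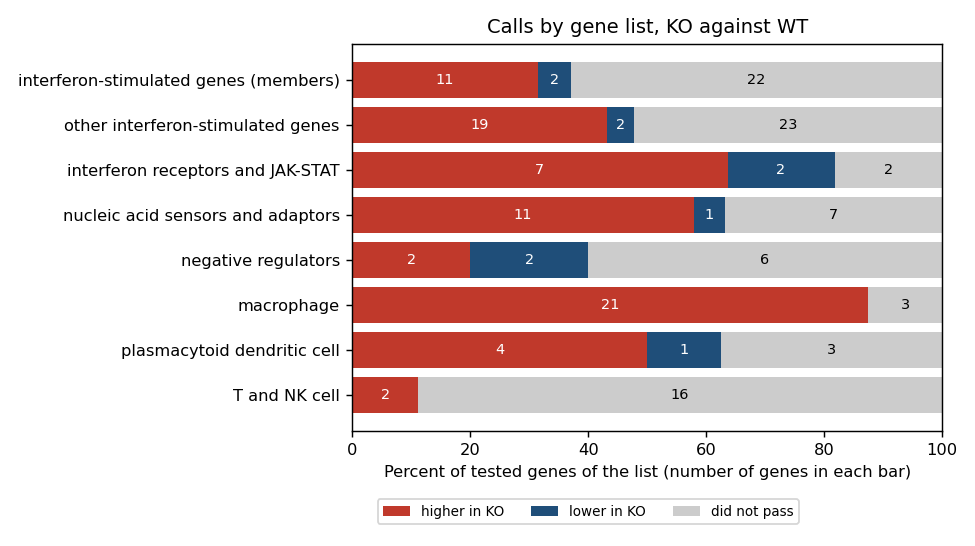
Percent of the tested genes of each list that were higher in KO (red), lower in KO (blue) or did not pass (grey), with the number of genes in each bar. The bar of the 35 interferon-stimulated genes holds 11 higher, 2 lower and 22 that did not pass. That of macrophage markers holds 21 higher and 3 that did not pass. Over all genes tested, which are not drawn, 22.4% were higher and 24.4% lower.

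Markers of immune and endothelial cells were measured beside these results. Over all genes tested, 22.4% rose and 24.4% fell, and the counts of each list stand beside these shares. Macrophage markers rose in 21 of 24 and fell in 0, with a median log2 fold change of 1.04. Emr1, which encodes the F4/80 antigen, was at 2492 and 2716 in KO R4 and R6, against 1066 and 1198 in WT R1 and R3. For 21 of the 24 both KO libraries lay above both WT libraries, and for 2 below. Those 2 were Cx3cr1, at 178 and 138 in KO and at 324 and 214 in WT, and Aif1. Aif1 was at 150 and 155 in KO and at 172 and 185 in WT, and neither passed (limma adjusted p = 0.0829 and 0.247). Of 8 tested genes listed for plasmacytoid dendritic cells, the main producers of type I interferon, 4 rose and 1 fell. Those that rose were Siglech, Ccr9, Tcf4 and Clec10a, and the gene that fell was Ly6d. This list shares Clec10a with the macrophage list and Bst2 with the 35 genes, so these 2 genes do not mark that cell type alone. Whether the other listed genes, such as Tcf4 and Ly6d, mark it alone in this tissue was not tested. Siglech was at 187 and 116 in KO and at 55.0 and 55.8 in WT (limma adjusted p = 0.0203), and Ly6d at 17.8 and 11.2 in KO and at 575 and 577 in WT (adjusted p = 0.000927). Of 18 T and NK cell markers, 2 passed as higher, a share below the 22.4% of all genes tested, and 0 as lower. With edgeR, with DESeq2, with no filter, without KO R4 and without KO R6 1 of them passed, and without either WT library 0 did. Their summed level was 1107 and 1071 in KO and 798 and 965 in WT. Endothelial markers rose in 9 of 12 and fell in 0, with a median of 0.90 and summed levels of 60322 and 69113 in KO and 39340 and 32289 in WT. They rose in 5 of 12 without WT R1 and in 1 of 12 without WT R3. Beside these, the median was 0.29 over the 35 genes and 1.66 over the mature adipocyte genes. It was 0.73 over the 6 guanylate-binding and immunoproteasome genes, which all passed as higher, so that this value is a selected one. The part of macrophage, endothelial and adipocyte content in these values was not tested.

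The calls rested on both WT libraries. Without WT replicate 1 (R1), 1 of the 35 genes was higher (Psmb10) and 1 lower (Isg20), as were 7.21% and 9.84% of all genes. Without WT replicate 2 (R3), 0 were higher and 1 lower (Isg20) in limma, as were 3.14% and 6.35% of all genes, and 11 had an unadjusted p under 0.05. The log2 fold changes of the 13 called genes kept their sign in these fits, which have fewer degrees of freedom. Of the 27 pathway and marker genes whose calls were followed, 15 kept theirs without WT replicate 1 and 10 without WT replicate 2. Macrophage markers rose in 15 of 24 without WT replicate 1 and in 10 without WT replicate 2. Receptor and JAK-STAT genes rose in 4 of 11 without WT replicate 1 and in 1 without WT replicate 2, sensors and adaptors in 3 and 2 of 19, and the further interferon-stimulated genes in 7 and 4 of 44.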

How the data were processed

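Counts of reads per gene, each divided by its library's size factor, are the signal that the authors deposited, per the file headers and values. The authors' deposited table adds their log2 fold changes with errors, their test score and their p-values. The submitters' processing notes name TopHat2 2.0.10, CASAVA 1.8, DESeq2 1.4.5 and HTSeq 0.5.3, and the build GRCm38. TruSeq RNA libraries were read for 50 cycles, per the labels' protocols. Whether counting used strand is unknown here.

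Groups came from the labels. limma 3.58.1 under R 4.3.3, with a trend on mean level, compared KO with WT after taking log2 of the value plus 1, which understates the change of low genes. Genes needed a mean of at least 10, and Benjamini-Hochberg adjustment ran over all 16710 of them. Reads recovered as whole numbers (100% of values, tolerance 0.01) were given to edgeR 4.0.16, which called 3503 genes higher and 4070 lower, and to DESeq2 1.42.0, which called 3529 higher and 3931 lower. The lowest value of the 35 genes was 12 reads. The limit of 3 reads that a count of 0 allows covers counting error only. Replicates differed beyond sampling noise (chi-square per degree of freedom 36.9 in KO and 52.3 in WT).

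The 35 genes, the other lists and the naming rule were all chosen with earlier results of these data known. Values per library are given for every called gene, for the 8 greatest fold changes, for the 6 greatest differences between R4 and R6 (mean of 50 or more) and, of each pathway list, for up to 6 called genes with the smallest p. Other genes are given by range, count or family. Some genes of the pathway lists are not reported here by name.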

Additional observations from a re-analysis of the deposited data

How the results depend on the processing

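Under 8 alternatives (pseudocounts 0.5 and 5, TMM or upper-quartile scaling, no minimum level or one of 50, edgeR, DESeq2) 10 or 11 of the 35 genes were higher and 2 lower, and the only call lost was Ifih1. Under the same alternatives, between 3503 and 3905 of all genes were higher and between 3354 and 4505 lower, with 14031 to 23659 genes tested. With each library left out in turn, genes of the 35 called higher ran from 0 to 13 and lower from 1 to 4, all genes called higher from 524 to 2846 and lower from 1061 to 3434, and the median of the 35 from 0.115 to 0.429. The fewest calls came without WT replicate 2, and such fits have fewer samples. The labels number the replicates but do not say whether same-numbered libraries are pairs. The correlation of deviations between same-numbered libraries was -0.009 over all genes and -0.53 over the 35. A correlation across genes of 4 libraries cannot decide this. The fit with the replicate block called 9 of the 35 higher and 2 lower, without Ddx58 and Ifih1, and 2737 genes higher and 3339 lower.

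The fold change of 12 genes, none of them called, changed sign when a library was left out, and the cause was not tested. The lowest and highest values over the libraries left out were -0.0352 and 0.562 for Zbp1, -0.15 and 0.37 for Ifit3, -0.40 and 0.55 for Oasl2, -0.15 and 0.24 for Oasl1, -0.22 and 0.12 for Rsad2, -0.234 and 0.0523 for Usp18, -0.49 and 0.13 for Mx1, -0.80 and 0.42 for Oas3, -0.42 and 0.00396 for Isg15, -0.74 and 0.15 for Ifi44, -0.827 and 0.0165 for Ifit1, and -1.37 and 0.42 for Oas1g.

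With 2 libraries per group, genes whose libraries differ within a group, such as Oas1g (SE 0.67), could not be called at differences of the size measured.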
